A study of Owenia fusiformis with 26 samples.

Results

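The early-larva-peak genes are 150 genes of the oweniid annelid *Owenia fusiformis* whose transcripts were nearly absent up to the coeloblastula and were most abundant in the early larva, 18 hours post fertilisation (hpf). They were drawn from the 26966 genes of the expression table by the mean of the 2 libraries of each stage. A gene was kept when its highest stage mean was at 18 hpf and at least 200, and when all its means up to 5 hpf were under 20. 4 gene identifiers were left out by name. 316 genes met these conditions, and the 150 with the highest ratio of the 18 hpf mean to the next highest stage mean plus 1 are described here. Because these values chose the genes, the height of the 18 hpf level and the low level up to 5 hpf are descriptions with no test.

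The data are bulk RNA-seq libraries of oocytes and of whole embryos and larvae, 2 at each of 12 stages, and the labels give no strain, treatment or genetic change for any of them. Cleavage was sampled from the oocyte and zygote through embryos of 2, 4 and 8 cells to 3 and 4 hpf, and was followed by the coeloblastula at 5 hpf and the gastrula at 9 hpf. The last 3 stages were elongation at 13 hpf, the early larva at 18 hpf and, as the end of the series, the mature larva at 27 hpf. The values are normalised expression, scaled between libraries and summed here over the transcripts of a gene. They are not divided by transcript length as far as the sources used here state, so that levels of different genes are not compared as numbers of molecules.

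In *O. fusiformis* the gastrula elongates into the mitraria, a planktonic larva with a ciliary band, an apical organ, a functional gut and bundles of chaetae, which are chitinous bristles. In this interval, embryonic cells that have received their fate begin to differentiate into muscle, neurons, ciliated cells and gut. Genes of such differentiating cells are often silent through cleavage, and transcription factors that act at the start of differentiation can be transient. This is background, and the tissues in which the 150 genes are expressed were not measured in these libraries.

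The 24 libraries had total values from 31696500 to 39433100. The size of the steps between low values put the libraries at an estimated 22400000 to 37200000 reads. A level of 200 was therefore well above the value of a read in every library, which lay between 0.954 and 1.62. The label of the group held in part for single libraries. In 104 of the 150 genes both 18 hpf libraries lay above all 22 other libraries, as they did in 2.73% of the 23934 genes tested, those that reached 10 in 2 or more libraries. The rule used these values, and the count is a description. In the other 46 genes, the lower 18 hpf library was reached by a 13 hpf library in 27 genes, by a 27 hpf library in 29 and by a 9 hpf library in 2. In a bulk library, more cells of a type and more RNA per cell cannot be told apart.

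Up to 5 hpf, the highest value of any of the 150 genes in any of the 16 libraries was 35.4, and 40 genes exceeded 20 in at least 1 of these libraries. OFUSG01238 and OFUSG01655 were listed at 0 in all 16. Taken over the gene means, the median level was 5.25 in the coeloblastula and 61.0 in the gastrula. It was 376 at elongation, 756 in the early larva and 471 in the mature larva. As a percentage of its own 18 hpf mean, the median gene stood at 7.18% in the gastrula, 50.5% at elongation and 60.9% in the mature larva. At 9 hpf 97 genes were still under 10% of their 18 hpf mean, and 19 genes were over 25%. At 27 hpf 5 genes were under 25%. The rule held all means up to 5 hpf under 20, while the mature larva had only to lie below the peak. A front steeper than the back was therefore largely set by the rule, and these levels are descriptions. The peak itself was modest, since the ratio of the rule ran from 1.26 to 2.66 with a median of 1.48. It reached at least 2 in 17 genes and was under 1.5 in 77.

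**Figure D1:**
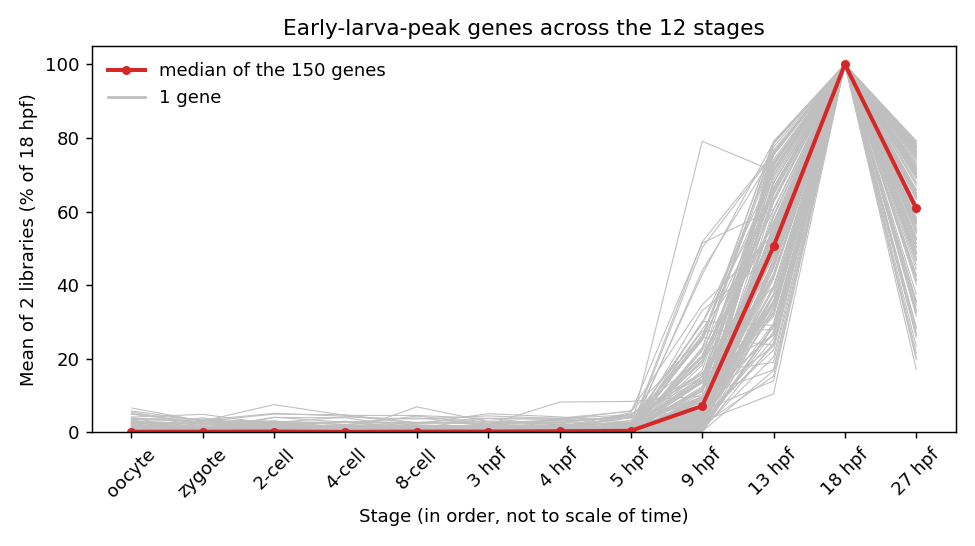
Mean of 2 libraries at each stage as a percentage of the 18 hpf mean (y axis) for each of the 150 genes (grey lines) over the 12 stages (x axis), with the median over genes in red. The median stands at 7.18% in the gastrula, 50.5% at elongation and 60.9% in the mature larva, and the genes are spread more widely at 13 and 27 hpf than at 5 hpf.

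Together the 150 genes took a small share of each library. At 5 hpf they summed to 0.00329% of the total in replicate 1 and 0.00282% in replicate 2. The shares were 0.213% and 0.138% in the gastrula and 1.13% and 0.785% at elongation. They were 1.81% and 1.59% in the early larva and 0.877% and 0.816% in the mature larva. At 13 hpf replicate 1 was thus higher than replicate 2 by more than the replicates differed at 18 or 27 hpf. The 4 most abundant genes made up at most 50.7% of the sum in the libraries from 9 to 18 hpf and 36.5% and 37.7% of it in the libraries of 27 hpf.

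**Figure D2:**
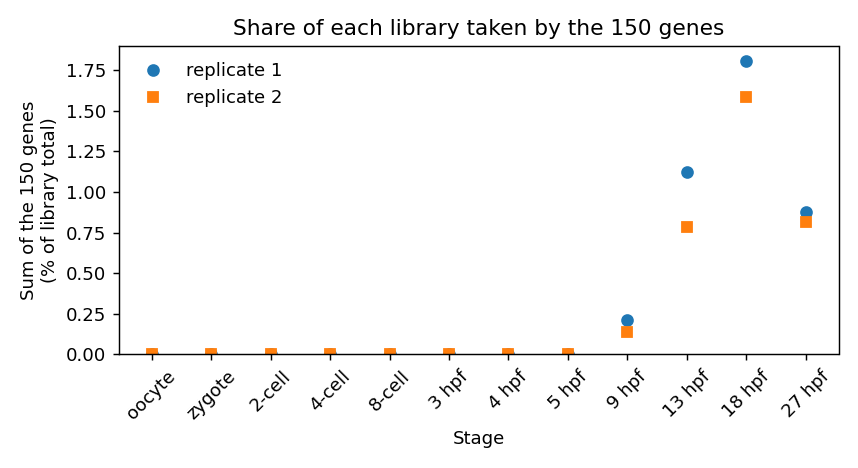
Sum of the 150 genes as a percentage of the library total (y axis) in each of the 24 libraries, by stage (x axis), with circles for replicate 1 and squares for replicate 2. The share is at most 0.00329% up to 5 hpf and is highest at 18 hpf, at 1.81% and 1.59%.

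Names could be given to 10 of the 150 genes, from the BlastX entry that the supplementary table of drug-responsive genes lists for them. An entry names the most similar protein found in a database and is no statement of orthology. 5 of the 10 resemble transcription factors. OFUSG16696, with the entry TCF15_HUMAN, resembles a basic helix-loop-helix factor of paraxial mesoderm in vertebrates. Its values were 13.2 and 11.5 at 9 hpf, 60.3 and 27.5 at 13 hpf, 449 and 392 at 18 hpf, and 162 and 220 at 27 hpf, after a median of 0 and a highest value of 13.5 over the 16 libraries up to 5 hpf. Both 18 hpf libraries lay above all the others, and at 13 hpf the mean was 10.4% of that at 18 hpf, the lowest percentage among the 150 genes. OFUSG09684 (FOXL1_MOUSE), which resembles a forkhead factor of gut mesenchyme in mice, had 15.9 and 8.37 at 9 hpf, 145 and 73.0 at 13 hpf, 273 and 275 at 18 hpf, and 154 and 147 at 27 hpf. The libraries of all 4 stages were separate, and those of 18 hpf were nearly equal.

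OFUSG21596 (SIX4_HUMAN) resembles a homeobox factor of the sine oculis family, which acts in muscle and sensory precursors of vertebrates. Its values were 42.4 and 46.9 at 9 hpf, 383 and 301 at 13 hpf, 919 and 1008 at 18 hpf, and 597 and 516 at 27 hpf, again with no overlap between these 4 stages. OFUSG04918 (TBX20_CHICK) resembles a T-box factor known from the vertebrate heart. Its libraries read 43.7 and 40.7 at 9 hpf, 201 and 75.1 at 13 hpf, 260 and 300 at 18 hpf, and 224 and 189 at 27 hpf. Here the libraries of 13 hpf were far apart and overlapped those of 27 hpf. OFUSG20572 (SCRT1_MOUSE), which resembles a zinc finger repressor of the scratch family known from neurons, was present early, with 327 and 463 at 9 hpf and 636 and 816 at 13 hpf. It had 709 and 1133 at 18 hpf and 200 and 327 at 27 hpf. The 18 hpf libraries overlapped those of 13 hpf, and the 27 hpf libraries were below both.

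Among the other 5 named genes, 3 resemble receptors. OFUSG16363 (CRFR2_RAT) resembles a class B G protein-coupled receptor for neuropeptide hormones. Its values were 124 and 189 at 9 hpf, 426 and 332 at 13 hpf, 1146 and 1177 at 18 hpf, and 865 and 803 at 27 hpf, and the 4 stages did not overlap. OFUSG16269 (FMAR_DROME) resembles the fly receptor for FMRFamide neuropeptides and was the gene with the highest 9 hpf level relative to 18 hpf, at 79.1%. Its libraries had 482 and 764 at 9 hpf, 604 and 514 at 13 hpf, 896 and 680 at 18 hpf, and 597 and 383 at 27 hpf. For this gene the 18 hpf libraries overlapped those of 9 hpf, so that the peak rested on the means alone. OFUSG05402 (ANPRA_HUMAN) resembles a natriuretic peptide receptor that synthesises cyclic GMP. It had 41.2 and 21.9 at 9 hpf, 353 and 119 at 13 hpf, 576 and 530 at 18 hpf, and 421 and 286 at 27 hpf, with overlap only between 13 and 27 hpf.

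OFUSG10750 (GFPT2_BOVIN) resembles the aminotransferase that feeds fructose 6-phosphate into hexosamine synthesis, the source of the sugar units of chitin and of many glycans. Its libraries read 42.0 and 16.8 at 9 hpf, 359 and 263 at 13 hpf, 515 and 598 at 18 hpf, and 281 and 358 at 27 hpf. The values of 13 and 27 hpf overlapped and lay on both sides of a clear maximum at 18 hpf. OFUSG19267 (CAV1_TAKRU) resembles caveolin-1, the membrane protein that shapes caveolae in vertebrate cells, and had the highest level of the 10. Its values were 296 and 200 at 9 hpf, 4044 and 3202 at 13 hpf, 11936 and 8898 at 18 hpf, and 4411 and 4813 at 27 hpf. The 18 hpf mean was 2.88 times that of 13 hpf and 2.26 times that of 27 hpf.

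**Figure D3:**
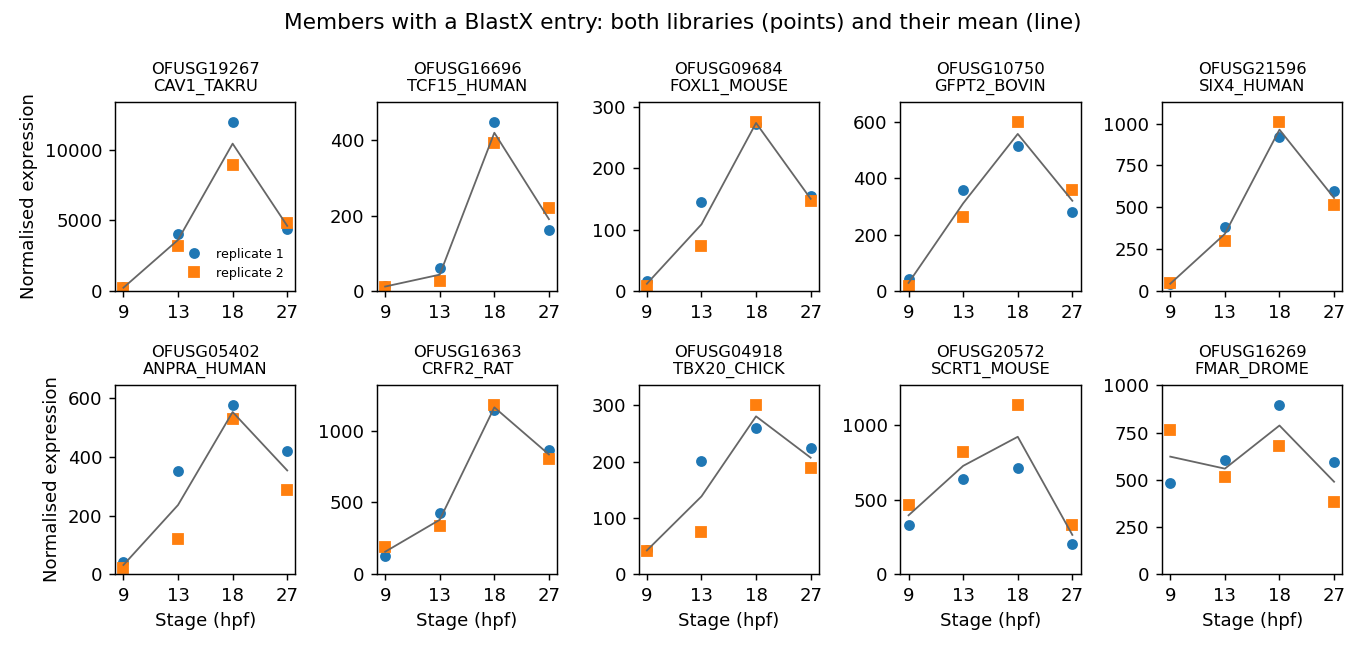
Normalised expression (y axis, from 0, a separate scale for each gene) in both libraries of the gastrula, elongation, early larva and mature larva (9, 13, 18 and 27 hpf, x axis) for the 10 genes with a BlastX entry; circles are replicate 1, squares replicate 2 and lines their mean. The libraries of 18 hpf stand apart from all others except in OFUSG20572 and OFUSG16269.

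The 10 genes with the highest ratio include OFUSG19267 and OFUSG16696, and the other 8 have no name in the sources used here. OFUSG01238 led, with a ratio of 2.66. It was listed at 0 in every library up to 5 hpf, had 0 and 1.04 at 9 hpf, 312 and 74.1 at 13 hpf, 661 and 473 at 18 hpf, and 284 and 141 at 27 hpf. Its libraries of 13 and 27 hpf overlapped, and its 18 hpf libraries were above all of them. OFUSG14414 followed with 2.55, and had 79.4 and 140 at 9 hpf, 1156 and 1346 at 13 hpf, 2458 and 3924 at 18 hpf, and 1143 and 871 at 27 hpf. OFUSG02469 had nearly equal replicates, with 683 and 575 at 13 hpf, 1462 and 1490 at 18 hpf, and 465 and 494 at 27 hpf. OFUSG22159 and OFUSG00550 had ratios of 2.51 and 2.39 but low levels, with 254 and 355, and 628 and 273, at 18 hpf. OFUSG22159 was also uneven early, with a highest value of 33.9 up to 5 hpf. The remaining 3 of the 10 were OFUSG11951, OFUSG20030 and OFUSG07193, with ratios from 2.15 to 2.21. Of these OFUSG07193 was the latest, with 7.66 and 6.31 at 9 hpf, 894 and 256 at 13 hpf, 4570 and 2272 at 18 hpf, and 1815 and 1371 at 27 hpf. All 10 genes had both 18 hpf libraries above the 22 others.

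Levels at 18 hpf ranged over more than 2 orders of magnitude, from 202 to 84000, with 52 genes under 500 and 12 at 10000 or more. OFUSG18467 was the highest, with 13560 and 11966 at 9 hpf, 61414 and 45326 at 13 hpf, 93922 and 74077 at 18 hpf, and 35169 and 22723 at 27 hpf. The highest value of this gene in any library up to 5 hpf was 30.0. OFUSG04631 and OFUSG04632, with consecutive identifiers, came next and had like profiles. OFUSG04631 had 45593 and 32681 at 13 hpf, 78093 and 72522 at 18 hpf, and 24437 and 24815 at 27 hpf. OFUSG04632 had 47049 and 26234 at 13 hpf, 76207 and 56018 at 18 hpf, and 18858 and 16739 at 27 hpf. In both, the 27 hpf libraries lay below those of 13 hpf. OFUSG18458 differed on this side, with 35156 and 21912 at 13 hpf, 59964 and 57430 at 18 hpf, and 38421 and 45059 at 27 hpf. The next 4 were OFUSG00604, OFUSG06603, OFUSG18457 and OFUSG20030, with 18 hpf means from 17897 to 29839. OFUSG06603 was already abundant at 9 hpf, at 12954 and 7739, which is 44.0% of its 18 hpf mean.

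To measure the rise between 9 and 13 hpf, elongation was compared with the gastrula. This comparison does not date the onset, as 123 of the 150 genes were already at 10 or more in both gastrula libraries. A gene of this group had to increase between 5 and 18 hpf, which favoured a rise over a fall between 9 and 13 hpf. The rule did not fix how much of the increase fell in this interval. All genes tested were under no such bound. Their shares are therefore given for scale, and no conclusion is drawn from the difference in direction. In 138 of the 150 genes (92.0%) both libraries of 13 hpf were above both of 9 hpf, against 26.3% of all genes tested. In no gene were both below, against 21.1% of all genes tested. The mean log2 difference between 13 and 9 hpf, taken on log2(value + 1), was positive in 147 genes, with a median of 2.82 over the group and 0.02 over all genes tested. In the limma fit of all 24 libraries, 50 genes (33.3%) rose with an adjusted p under 0.05, and 0 fell. Of all genes, 4.19% were called higher and 2.13% lower. At an unadjusted p under 0.05, 0 of the group fell as well, and no share of all genes is given for this threshold. The count of 50 was sensitive to a single library. It was 16 without elongation replicate 1 and 26 without gastrula replicate 2. In a fit of only the 8 libraries from 9 hpf on, chosen after the data were seen, 109 genes (72.7%) rose, against 8.58% of all genes, and 0 fell, against 1.85%. The median standard error of the 150 genes was 0.99 in the fit of 24 libraries and 0.43 in that of 8. Over all genes tested it was 0.67 and 0.45. The fit of 24 takes in the libraries up to 5 hpf, where the rule held the group low. Here too its shares for the group and for all genes rest on unlike errors and are not compared.

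Of the genes called in the fit of 24 libraries, OFUSG01238 and OFUSG14978 rose the most. OFUSG01238 rose by 6.74 (SE 0.64, adjusted p = 2.21e-05), a size that depends on the added 1, since only 0 and 1.04 were listed at 9 hpf. OFUSG14978 had 10.6 and 11.5 at 9 hpf and 1837 and 833 at 13 hpf, and rose by 6.68 (SE 1.17, adjusted p = 0.00236). Both calls held when any of the 4 libraries was left out, but with a pseudocount of 0.1 in place of 1 that of OFUSG14978 was lost (adjusted p = 0.0672). Of the 10 named genes, 3 rose. These were OFUSG19267 (CAV1_TAKRU) by 3.88 (SE 1.06, adjusted p = 0.0395), OFUSG09684 (FOXL1_MOUSE) by 3.04 (SE 0.82, adjusted p = 0.0355) and OFUSG05402 (ANPRA_HUMAN) by 2.73 (SE 0.68, adjusted p = 0.0243). Leaving out elongation replicate 1 took these adjusted p-values to 0.244, 0.299 and 0.316, and leaving out gastrula replicate 2 took them to 0.18, 0.197 and 0.165. Leaving out gastrula replicate 1 gave 0.109 for OFUSG19267 and 0.0723 for OFUSG09684, and leaving out elongation replicate 2 gave 0.137 and 0.0709. In the fit of 8 libraries all 3 rose, with adjusted p-values of 0.000205, 0.00704 and 0.0185. With a pseudocount of 0.1 none of the 3 was called, at 0.347, 0.512 and 0.437. With only the 4 libraries of both stages OFUSG09684 and OFUSG05402 were lost, at 0.0657 and 0.0925, and with transcripts in place of genes OFUSG19267 was, at 0.106. OFUSG10750, OFUSG21596 and OFUSG16363 also rose in the fit of 8 libraries, with adjusted p-values of 0.00252, 0.000668 and 0.0265. The 4 others, OFUSG16696, OFUSG04918, OFUSG20572 and OFUSG16269, passed in neither fit. Their differences were 1.65, 1.52, 0.89 and −0.12.

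The decline after the peak was compared with the front by setting 27 hpf against 13 hpf, since the rule bounded only the higher of the pair. The mean of 27 hpf was above that of 13 hpf in 100 genes and below it in 50. Measured against the 18 hpf mean, 54 genes were under 50% at 13 hpf only, 21 at 27 hpf only and 17 at both stages, while 58 were at 50% or more on both sides. Both libraries of 27 hpf lay above both of 13 hpf in 55 genes (36.7%), against 34.3% of all genes tested, and below in 23 (15.3%), against 32.4%. The median log2 difference of the group was 0.23, and that of all genes −0.01. In the limma fit of 24 libraries, 0 genes rose, against 11.0% of all genes, and 1 fell (0.667%), against 8.93%. At an unadjusted p under 0.05, 3 rose and 2 fell. No share of all genes is given for this threshold, so nothing is read from these counts. The median standard error in this fit was 0.99 for the group and 0.67 for all genes, against 0.43 and 0.45 in the fit of 8 libraries. The fit of 24 takes in the libraries up to 5 hpf, where the rule held the group low. Its shares for the group and for all genes thus rest on unlike errors and are not compared. In the fit of 8 libraries 11 rose (7.33%), against 15.7% of all genes, and 5 fell (3.33%), against 11.0%. No test was made of the share of the group against that of all genes.

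**Figure D4:**
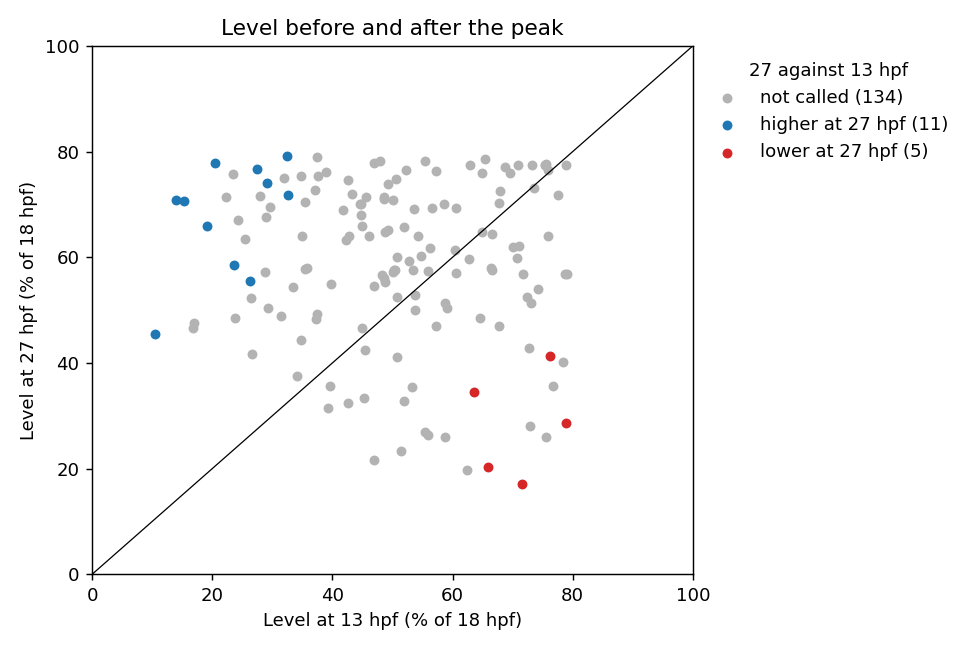
Level at 27 hpf (y axis) against level at 13 hpf (x axis), both as a percentage of the 18 hpf mean, for the 150 genes (points). The line marks equal levels, and colours give the calls of the limma fit of the 8 libraries from 9 hpf on, with 11 genes higher and 5 lower at 27 hpf and 134 not called.

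The single gene called in the fit of 24 libraries was OFUSG18280. It had 140 and 42.8 at 9 hpf, 452 and 264 at 13 hpf, 630 and 370 at 18 hpf, and 80.2 and 91.2 at 27 hpf, and fell by 2.00 between 13 and 27 hpf (SE 0.66, adjusted p = 0.0423). The 27 hpf mean was 17.1% of that at 18 hpf, the lowest percentage of the group. The call was lost when any of the 4 libraries was left out, with adjusted p-values of 0.237 without elongation replicate 1, 0.0714 without elongation replicate 2, 0.163 without mature larva replicate 1 and 0.118 without mature larva replicate 2. It was also lost with a pseudocount of 0.1, at 0.327, and with transcripts in place of genes, at 0.0519. It held in the fit of 8 libraries, at 0.0396. In that fit OFUSG20572 (SCRT1_MOUSE) also fell, by 1.49 (SE 0.37, adjusted p = 0.0198), as did OFUSG18467, OFUSG25769 and OFUSG26156. OFUSG16696 (TCF15_HUMAN) was higher at 27 than at 13 hpf by 2.18 (SE 0.50, adjusted p = 0.015), and OFUSG16363 (CRFR2_RAT) by 1.14 (SE 0.29, adjusted p = 0.0219). The largest such rise was that of OFUSG08950, with 61.7 and 23.3 at 13 hpf, 310 and 296 at 18 hpf, and 223 and 205 at 27 hpf, which is 2.46 (SE 0.56, adjusted p = 0.0146). In the fit of 24 libraries the adjusted p-values were 0.379 for OFUSG20572, 0.103 for OFUSG16696, 0.768 for OFUSG16363 and 0.218 for OFUSG08950, none of them a call. Among the named transcription factor-like members, OFUSG20572 thus had an early-sided and OFUSG16696 a late-sided profile. As calls, these rest on the fit of 8 libraries, which was chosen after the data were seen.

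The same rule with another peak stage gave groups to set the 150 genes against. With 13 hpf as the highest stage it found 160 genes, of which 150 were taken, with ratios from 1.03 to 3.45 and a median of 1.35. These genes stood at a median of 30.8% of their peak at 9 hpf, and at 69.6% at 18 hpf and 38.4% at 27 hpf. With 27 hpf as the highest stage it found 972 genes, of which 150 were taken, with ratios from 7.40 to 303 and a median of 20.6. They stood at a median of 1.67% of their peak at 13 hpf and 3.99% at 18 hpf. As 27 hpf is the last stage, such genes have no later stage to be compared with. The median ratio of the genes with their maximum at 18 hpf was 1.48. Each group of 150 was the top by this ratio, out of 160, 316 and 972 genes for peaks at 13, 18 and 27 hpf. The medians thus cover unlike shares of these genes and are not compared. In the comparison of 13 with 9 hpf, 0 of the 150 genes with a 27 hpf peak rose in the fit of 24 libraries and 7 in that of 8, with a median log2 difference of 0.57. The corresponding values for a peak at 13 hpf were 25, 89 and 1.77, where the rule used the contrast. The groups were chosen by their levels, and the differences between them are descriptions.

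Whether the peak at 18 hpf was seen in libraries that had not chosen the genes was examined by applying the rule to the libraries of a single replicate number and reading the others. Chosen in replicate 1, 273 genes met the rule, and of the top 150 the 18 hpf library was the highest stage of replicate 2 for 121 (80.7%). In this replicate 18 hpf was highest for 12.4% of all genes tested and for 37.0% of the 1089 genes that were at least 200 at 18 hpf and under 20 up to 5 hpf. Of the rest, 23 were highest in the mature larva, 3 at elongation and 3 in the gastrula. Chosen in replicate 2, 402 genes met the rule, and the 18 hpf library of replicate 1 was highest for 107 of the top 150 (71.3%), against 11.9% of all genes and 26.4% of 1038 genes. Of the rest, 21 were highest in the mature larva, 21 at elongation and 1 in the gastrula. The median ratio was 1.48 in the choosing replicate and 1.40 in the other when replicate 1 chose, and 1.71 and 1.22 when replicate 2 chose. These groups shared 89 and 95 genes with the 150.

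The replicates of a stage differed in a shared direction. At 13 hpf replicate 1 was the higher for 118 of the 150 genes (78.7%), with a median log2 ratio of 0.50, against 52.8% of all genes tested whose level was in the range of the group. At 9 hpf it was higher for 94 genes (62.7%, against 48.4%), at 18 hpf for 86 (57.3%, against 47.9%) and at 27 hpf for 99 (66.0%, against 51.9%). A difference of more than 2-fold between replicates was found for 56 genes in the gastrula (37.3%, against 29.3% of all genes in the range) and 38 at elongation (25.3%, against 10.2%). In each of the larval stages it was found for 13 (8.67%, against 8.04% in the early and 8.49% in the mature larva). The percentage of the 18 hpf level at 13 hpf moved with this, as its median was 58.9% in the libraries of replicate 1 and 42.2% in those of replicate 2. At 27 hpf the corresponding medians were 63.7% and 57.1%. Libraries of the same number need not come from the same culture, and the source of these differences was not tested.

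**Figure D5:**
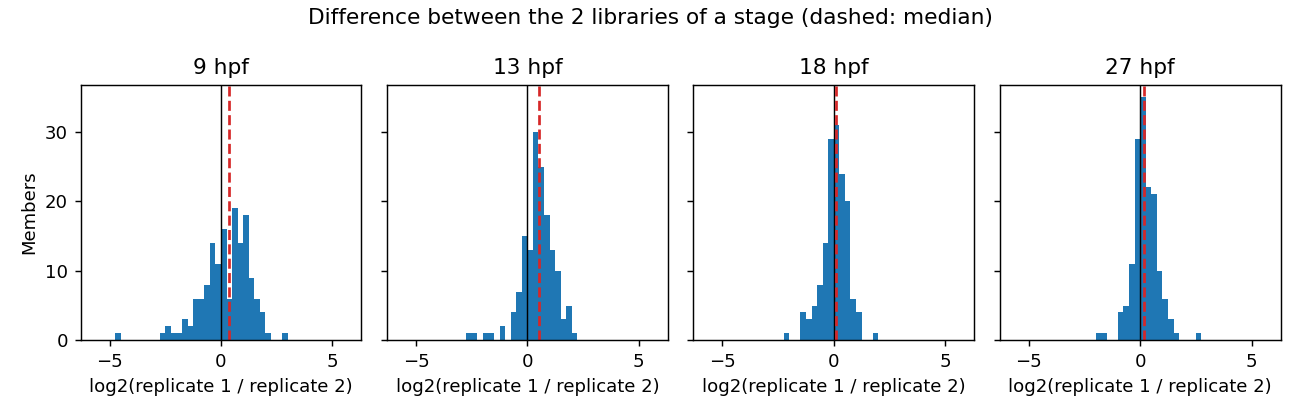
Number of the 150 genes (y axis) by the log2 ratio of replicate 1 to replicate 2, after adding 1 to each value (x axis), at 9, 13, 18 and 27 hpf. The solid line marks equal replicates and the dashed line the median, which is 0.36, 0.50, 0.10 and 0.16.

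At the edges of the rule, values on both sides were close. The members with the lowest ratios were OFUSG16801, OFUSG12392 and OFUSG15188, all at 1.26, and the next genes below the limit were OFUSG23480, OFUSG08072 and OFUSG15143, all at 1.25. The 18 hpf means nearest to the minimum were 202 for OFUSG22430 inside and 197 for OFUSG17949 outside, and the highest early means nearest to the limit were 19.9 for OFUSG00550 inside and 20.3 for OFUSG15527 outside. OFUSG22161 and OFUSG15188 had the most unequal 18 hpf libraries. OFUSG22161 had 76.7 in replicate 1 and 330 in replicate 2, and was lower in replicate 1 at 9, 13 and 27 hpf as well, with 39.4 and 236 at 13 hpf. OFUSG15188 had 324 and 83.7 at 18 hpf, the latter below both of its 27 hpf values of 208 and 113. OFUSG21054 had the second highest 9 hpf level relative to 18 hpf, at 51.8%, after OFUSG16269, with 532 and 348 at 9 hpf and 823 and 878 at 18 hpf.

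Most of the genes were represented by a single transcript in the table. This was the case for 134 of the 150, while 16 (10.7%) had 2 or more, against 14.7% of all genes tested. In 5 of the 16, a transcript held over 90% of the 18 hpf level, among them OFUSG19267, where the other transcript was listed at 0 at 18 hpf. In 2 genes the leading transcript at 9 hpf was not that of 18 hpf. OFUSG06339 had means of 13.0 for its first and 97.1 for its second transcript at 9 hpf, against 833 and 380 at 18 hpf. The first transcript therefore went from 11.8% to 68.7% of the gene's level. In OFUSG01655 both transcripts held exactly 50.0% at all 4 stages, so that the levels of the pair cannot be told apart. In OFUSG16363 (CRFR2_RAT) the transcripts were also near balance, with 49.4% and 50.6% at 18 hpf.

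Runs of consecutive identifiers contained 19 of the 150 genes, in 9 runs of which the longest had 3 genes. The groups with a peak at 13 and 27 hpf had 11 and 15 genes with such a neighbour in their own group. Whether the numbering follows the genome is not given in the sources used here, and reads could have been divided between near-identical copies. OFUSG01238 and OFUSG01239 had like levels, with 661 and 473 at 18 hpf for the first and 684 and 446 for the second. OFUSG18280 and OFUSG18281 shared the steep decline, and OFUSG18281 had 533 and 267 at 13 hpf, 732 and 549 at 18 hpf, and 103 and 150 at 27 hpf. Not all runs were alike. OFUSG00112 had a mean of 1066 at 13 hpf and 1360 at 18 hpf, whereas OFUSG00113 had 96.4 and 307.

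The functional lists could be filled only with genes that carry a BlastX entry in the supplementary table, and 3 of the 12 lists held members of the group, 8 in all. The list of transcription factors had 72 genes tested, of which 15 had their highest mean in the early larva, 21 in the gastrula, 14 at elongation and 14 in the mature larva, and 5 were members. Read in single replicates, 18 hpf was highest for 12.4% of all genes tested in replicate 2 and 11.9% in replicate 1. No share of all genes is given for the other stages. In the fit of 24 libraries, 5 of the 72 rose and 3 fell between 9 and 13 hpf, and 4 rose and 10 fell between 13 and 27 hpf, with median log2 differences of 0.16 and −0.50. Of all genes tested, 4.19% rose and 2.13% fell in the first comparison and 11.0% rose and 8.93% fell in the second. The list of neurotransmission, neuropeptide and sensory receptor genes had 39 tested and 2 members, OFUSG16363 and OFUSG16269. In this list 7 genes had their highest mean at 18 hpf and 22 at 27 hpf, and between 13 and 27 hpf 12 of the 39 rose and 1 fell, against the same 11.0% and 8.93% of all genes. The list of chitin synthesis and breakdown had 8 genes, with OFUSG10750 as its member, and 2 of the 8 had their highest mean at 18 hpf. The other 9 lists, among them muscle, cilia, proteases and extracellular matrix, held none of the 150 genes. The table itself contained 13 of the 150 genes (8.67%), against 3.53% of all genes tested, 18.5% of the 1059 genes at 200 or more at 18 hpf and under 20 up to 5 hpf, and 22.0% of the group with a peak at 13 hpf. Since the table was compiled from drug-treated embryos and larvae of the same species, these shares describe which genes could be named, and the rest of the 150 remained without annotation.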

How the data were processed

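The 24 RNA-seq libraries, 2 for each of 12 stages, took their stage from the sample labels, with columns named for 16 and 32 cells read as 3 and 4 hpf, a match that bears on no comparison made here. The authors deposited normalised expression values (unit: signal), 1 per transcript and library. They are not whole numbers, and the submitters' notes name kallisto 0.46.2 and DESeq2 1.30.1 without a role. The 3 columns that match no sample were not used, and accessibility at 5 hpf was not analysed here. The 31903 transcripts were summed to 26966 genes. Genes that reached 10 in 2 or more libraries (23934) entered a limma fit (version 3.58.1, R 4.3.3) of log2(value + 1), which had stage as its factor and a variance trend. All 150 members passed this filter. Benjamini-Hochberg adjustment covered every gene tested, and calls were made under 0.05. The paper describes the time course as made from 2 biological replicates. The labels do not say whether libraries of a stage come from separate cultures. The p-values measure the spread between these libraries.

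A read was worth between 0.954 and 1.62 of the deposited units, and the precision of values of a few units is limited by counting. In 20 of the 24 libraries, 95% or more of these low values were whole reads to within 0.1. Tables were made with Python 3.11.15 and pandas 2.3.3. The fits were tested on simulated data. The genes described singly are the 10 with the highest ratio, the 8 with the highest 18 hpf mean, all with a BlastX entry, 3 on each side of the limit of 150, up to 2 that rose and 2 that fell the most in each comparison among genes called with separate libraries, the 2 with the most unequal 18 hpf libraries and the 2 highest at 9 hpf relative to 18 hpf. Further genes called in the fit of 8 libraries, genes with several transcripts or consecutive identifiers, and genes at the other limits of the rule were picked after their values were seen. The members, lists and tests were chosen with earlier results of these data known. The alternatives were trimmed mean of M-values (TMM) scaling, no filter, pseudocounts of 0.1 and 10, no variance trend, only the libraries compared, the replicate number as a block, each replicate left out, transcripts in place of genes, and other limits in the rule. The fit of 8 libraries and a block by period were added after seeing the data.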

Additional observations from a re-analysis of the deposited data

How the results depend on the processing

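Of all genes tested, 4.19% rose between 9 and 13 hpf in the fit of 24 libraries and 8.58% in that of 8. For the other settings no share of all genes is given, so their counts show only how far the calls of the group moved. The count of genes of the group that rose between 9 and 13 hpf was 50 and depended on the processing. It was 14 with a pseudocount of 0.1, 117 with a pseudocount of 10, 81 with only the 4 libraries compared, 109 with the 8 libraries from 9 hpf on, and from 16 to 36 with a replicate left out. Between 13 and 27 hpf, where 0 rose and 1 fell, the counts were 19 and 3 with a pseudocount of 10, 13 and 4 with only the 4 libraries compared, 11 and 5 with the 8 libraries from 9 hpf on, and 1 and 1 without the variance trend. With a pseudocount of 0.1 the fall was lost (0 genes), and with a replicate left out from 0 to 1 rose and from 0 to 0 fell. TMM scaling (factors from 0.902 to 1.21), no filter and transcripts as deposited gave counts within 1.5 times these. With transcripts, however, the fall called was not that of OFUSG18280 (limma, adjusted p = 0.0519). With the replicate number as a block the counts were 71 genes higher at 13 hpf and, at 27 hpf, 0 higher and 1 lower. With a block by period they were 95, 1 and 1. With the block, OFUSG10750 and OFUSG21596 were also called higher at 13 hpf (adjusted p = 0.0178 and 0.026). The differences between replicates correlated by 0.47 between 9 and 13 hpf and by 0.37 between 13 and 27 hpf, and by over 0.1 in 57 of 66 pairs of stages but not in all. The labels name no shared culture or batch behind a number, and the fit without the block is the one reported.

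Under an early limit of 10, 183 genes met the rule and 85 of the 150 were kept. Replicate 2 alone kept 95 and replicate 1 alone 89. Over all 316 genes that met the rule the median at 27 hpf was 73.9% of the 18 hpf level. Signs were followed only for the genes with a BlastX entry and for OFUSG01238, OFUSG14978 and OFUSG18280, not for the whole group. Among these, signs that turned were those of small differences, none of them called. With a replicate left out, OFUSG16269 ranged from −0.45 to 0.21 (13 against 9 hpf) and from −0.54 to 0.10 (27 against 13 hpf), OFUSG10750 from −0.18 to 0.27 and OFUSG05402 from −0.025 to 1.54 (both 27 against 13 hpf). Depth limits values of a few reads, as at 9 hpf in OFUSG01238.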
